A study of Mus musculus with 36 samples.

Results

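Smooth muscle and pericyte genes were followed in the mouse stroma of oral carcinoma xenografts grown orthotopically in immunodeficient NSG mice. The set held 32 genes grouped by function, 24 contractile and regulatory genes of smooth muscle and 8 genes typical of pericytes. A listed gene entered when the array annotation gave it a probe set of its own, and where several existed the brightest on average was used. On this basis 28 of the 32 genes were measured, out of 17097 genes on the array, and 26 of them (20 contractile, 6 pericyte) lay above the filter on dim genes and were tested. Tagln, Hspb6, Smtn and Abcc9 had no single-gene probe set in the annotation used. Itga8, an integrin subunit of smooth muscle, and Kcnj8, a potassium channel subunit of pericytes, had mean levels of 4.26 and 5.10 log2, under the filter at 5.19 log2, and were not tested.

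The samples were the neural fraction of the tumour stroma, 36 arrays in 11 groups over 3 experiments. Tumours carried either a short hairpin RNA against the fatty acid transporter CD36 (shCD36) or the non-targeting hairpin (PLKO), and the mice received a diet rich in palmitic acid, a diet rich in oleic acid or a control diet. In the first VDH15 experiment (VDH15-1) all tumours carried PLKO and the diets were palmitate, oleate and control, with 4 arrays each. In the SCC25 experiment and in the second VDH15 experiment (VDH15-2) the groups were shCD36 on palmitate, shCD36 on control, PLKO on palmitate and PLKO on control, with 3 arrays each. VDH15 and SCC25 are oral carcinoma cell lines, so each hairpin acted in the implanted tumour cells, and mouse Cd36 in the stroma is no check of the knockdown. The arrays of a group are labelled technical replicates of 1 biological replicate. How many mice or tumours they stand for, the ages and sex of the mice and how the fraction was isolated are not given in the sources used here. P-values from the arrays within an experiment therefore measure only the spread between these arrays, which may be technical.

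Smooth muscle cells contract when myosin light chain kinase phosphorylates the regulatory light chain of smooth muscle myosin, whose heads then pull on actin filaments. Pericytes wrap capillaries and share part of this machinery; they are recruited by platelet-derived growth factor through the receptor Pdgfrb and keep their identity partly through Notch3. Many contractile genes are switched on by serum response factor (SRF) with its partner myocardin (Myocd), which bind a DNA element called the CArG box, CC and GG around a core of A and T.

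Because contractile genes share this element, the promoter windows in the RefSeq table (mouse build GRCm38.p6, 300 bases around each annotated start site, most of them before it) were searched for it. Promoters were listed for 26 of the 32 genes, 31 windows in all. Myh11, Actg2, Tagln, Myocd, Pdgfrb and Ndufa4l2 had no listed window, so the search says nothing about them. An exact CArG box stood in 1 of these 31 windows, that of Myl9, against 1.63% of all 32851 windows. Boxes with 1 G or C in the core, a form searched for after the exact one had been seen to be rare, stood in 6 of 25 contractile windows and 0 of 6 pericyte windows, against 8.50% of all windows. The CArG box reads alike on both strands, and no boxes overlapped within a window. The Myl9 and Acta2 windows are shown because they hold the exact box and the one-off boxes of the genes that encode the myosin light chain and the main smooth muscle actin. Capitals mark the boxes. In Myl9 (chr2:156775214-156775513, plus strand) the exact box began 161 bases and the one-off box 99 bases before the start site. In Acta2 (chr19:34255324-34255623, minus strand) the one-off boxes began 84 and 34 bases before it.
Myl9: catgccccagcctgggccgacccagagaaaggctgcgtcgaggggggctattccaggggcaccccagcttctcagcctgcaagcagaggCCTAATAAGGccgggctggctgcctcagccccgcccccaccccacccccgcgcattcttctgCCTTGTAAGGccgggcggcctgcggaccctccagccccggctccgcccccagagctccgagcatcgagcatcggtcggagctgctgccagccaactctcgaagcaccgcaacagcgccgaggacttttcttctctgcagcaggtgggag
Acta2: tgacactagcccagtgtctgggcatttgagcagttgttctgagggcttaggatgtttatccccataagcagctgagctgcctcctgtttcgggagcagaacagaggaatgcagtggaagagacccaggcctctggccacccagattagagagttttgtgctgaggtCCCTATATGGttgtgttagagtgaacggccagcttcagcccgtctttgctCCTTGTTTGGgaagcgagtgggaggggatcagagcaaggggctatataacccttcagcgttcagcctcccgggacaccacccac
The other windows with a one-off box belonged to Jph2, Pdlim3 and Hspb6. Those of Jph2 overlapped and held the same box, so the 6 contractile windows came from 5 genes. No array value bears on binding at these boxes.

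The deposited values had been adjusted so that experiment, hybridisation batch and scan batch carried no average difference once diet and shRNA were accounted for, so levels were compared only within an experiment. Batch effects within an experiment could be looked at in VDH15-1 alone, where 2 scan batches held the diets. For each gene the 11 group averages were fitted with limma, with condition and experiment as terms, and Benjamini-Hochberg adjusted p-values were taken over 12823 genes. The number of independent experiments was 3 for the palmitate effect in PLKO tumours, 2 for any effect involving shCD36 and 1 for oleate. Of the smooth muscle markers, 7 of 8 (Myh11, Acta2, Cnn1, Des, Actg2, Lmod1 and Myocd) were above the dim filter, as were 4 of 6 pericyte markers (Rgs5, Notch3, Pdgfrb and Ndufa4l2). The Schwann markers Sox10 and Mbp had mean levels of 6.85 and 6.66 log2. On the first principal component of all genes, which held 44.5% of the variance, 3 arrays stood apart, replicates 1 and 2 of PLKO palmitate in VDH15-1 (scores 53.2 and 50.1) and replicate 1 of PLKO palmitate in VDH15-2 (42.5), while the other PLKO palmitate arrays scored 13.8 to 23.2. Some palmitate over control differences within an experiment turned sign or moved by over 1.5 times without these arrays. They are given both ways for members whose differences are printed in the text. Counts of members use all arrays unless stated.

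On the palmitate diet, 3 of the 26 members passed the test in PLKO tumours, all of them higher: the pericyte and endothelial adhesion molecule Mcam (CD146), the actin-anchoring protein Pdlim7 and caldesmon (Cald1), which holds back myosin on actin. In all, 887 of 12823 genes (6.92%) were called, 468 of them (3.65%) higher. Contractile members had a median log2 fold change of 0.42 and pericyte members one of 0.82, against -0.03 for all genes, and 16 of 20 contractile and 4 of 6 pericyte members had positive values. The contractile median was 0.36 without VDH15-1, 0.20 without SCC25 and 0.58 without VDH15-2, and the pericyte median was 0.58, 0.12 and 0.98 in the same order. Without the 3 arrays that stood apart the medians were 0.41 and 0.52. The 6 fitted pericyte values ran from -0.51 to 1.04, and their median lay between Pdgfrb (0.75) and Mcam (0.88). Within single experiments the pericyte medians were 0.68 in SCC25, 0.36 in VDH15-1 and 0.01 in VDH15-2. The contractile medians were 0.72, 0.50 and -0.05 in the same order. The larger fitted pericyte median was thus not seen in SCC25 or VDH15-1. At an unadjusted p under 0.05 there were 11 of 26 members, against 26.8% of all genes.

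Mcam had 8.96, 8.67, 6.94 and 7.20 log2 on palmitate in VDH15-1, against 6.67, 7.38, 6.65 and 6.53 on control. It had 7.45, 7.70 and 7.89 on palmitate in SCC25, against 6.94, 6.95 and 6.92 on control. Its VDH15-2 arrays read 8.08, 7.74 and 7.66 on palmitate, against 7.0, 6.96 and 7.21 on control. The palmitate and control arrays did not overlap in SCC25 and VDH15-2, while in VDH15-1 the palmitate arrays split into a high and a low pair and overlapped with one control array. Mcam was 0.88 ± 0.14 log2 higher (SE, 3 experiments), or 1.84-fold, with a limma adjusted p of 0.0241. Without the 3 arrays that stood apart its log2 fold change was 0.55 with an adjusted p of 0.0640, past the threshold no longer. The Mcam difference in VDH15-1 was 1.13, or 0.26 without the arrays that stood apart.

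Pdlim7, a PDZ and LIM domain protein that ties signalling proteins to actin fibres, had 11.01, 10.83, 10.60 and 10.77 log2 on palmitate in VDH15-1, against 10.08, 10.35, 10.18 and 10.22 on control. In SCC25 it had 10.78, 10.79 and 10.75 on palmitate, against 10.15, 10.19 and 10.18 on control. In VDH15-2 it had 10.77, 10.74 and 10.60 on palmitate, against 10.34, 10.48 and 10.32 on control. No palmitate array overlapped with a control array in any experiment. The log2 fold change was 0.51 ± 0.08 (SE, 3 experiments), or 1.42-fold, with a limma adjusted p of 0.0261, and 0.46 without the 3 arrays that stood apart (adjusted p 0.0311). A second probe set for Pdlim7 gave 0.24, with -0.10 in VDH15-2.

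Cald1 had 11.44, 11.42, 10.71 and 10.74 log2 on palmitate in VDH15-1, against 10.37, 10.36, 10.23 and 10.28 on control. In SCC25 it had 11.35, 11.55 and 11.55 on palmitate, against 9.89, 9.82 and 9.80 on control. In VDH15-2 it had 11, 11.10 and 11.09 on palmitate, against 10.30, 10.46 and 10.41 on control. The groups did not overlap in any of the 3 experiments, and the gap was widest in SCC25. Cald1 was 1.03 ± 0.21 log2 higher (SE, 3 experiments), or 2.04-fold, with a limma adjusted p of 0.0387. Without the 3 arrays that stood apart it was 0.92 with an adjusted p of 0.0692. The Cald1 difference in VDH15-1 was 0.77, or 0.42 without the arrays that stood apart. Of its 4 other probe sets, 2 gave 1.08 and 0.51 and 2 gave 0.06 and 0.01, so the probe sets of Cald1 did not move alike.

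The 3 calls were lost when any 1 of the 3 experiments was left out, with 0 members called each time. Without VDH15-1 the limma adjusted p-values were 0.0694 for Mcam, 0.0795 for Pdlim7 and 0.0842 for Cald1. In a bulk sample such as this, a lower or higher share of cells of a type and less or more RNA per cell cannot be told apart.

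**Figure D1:**
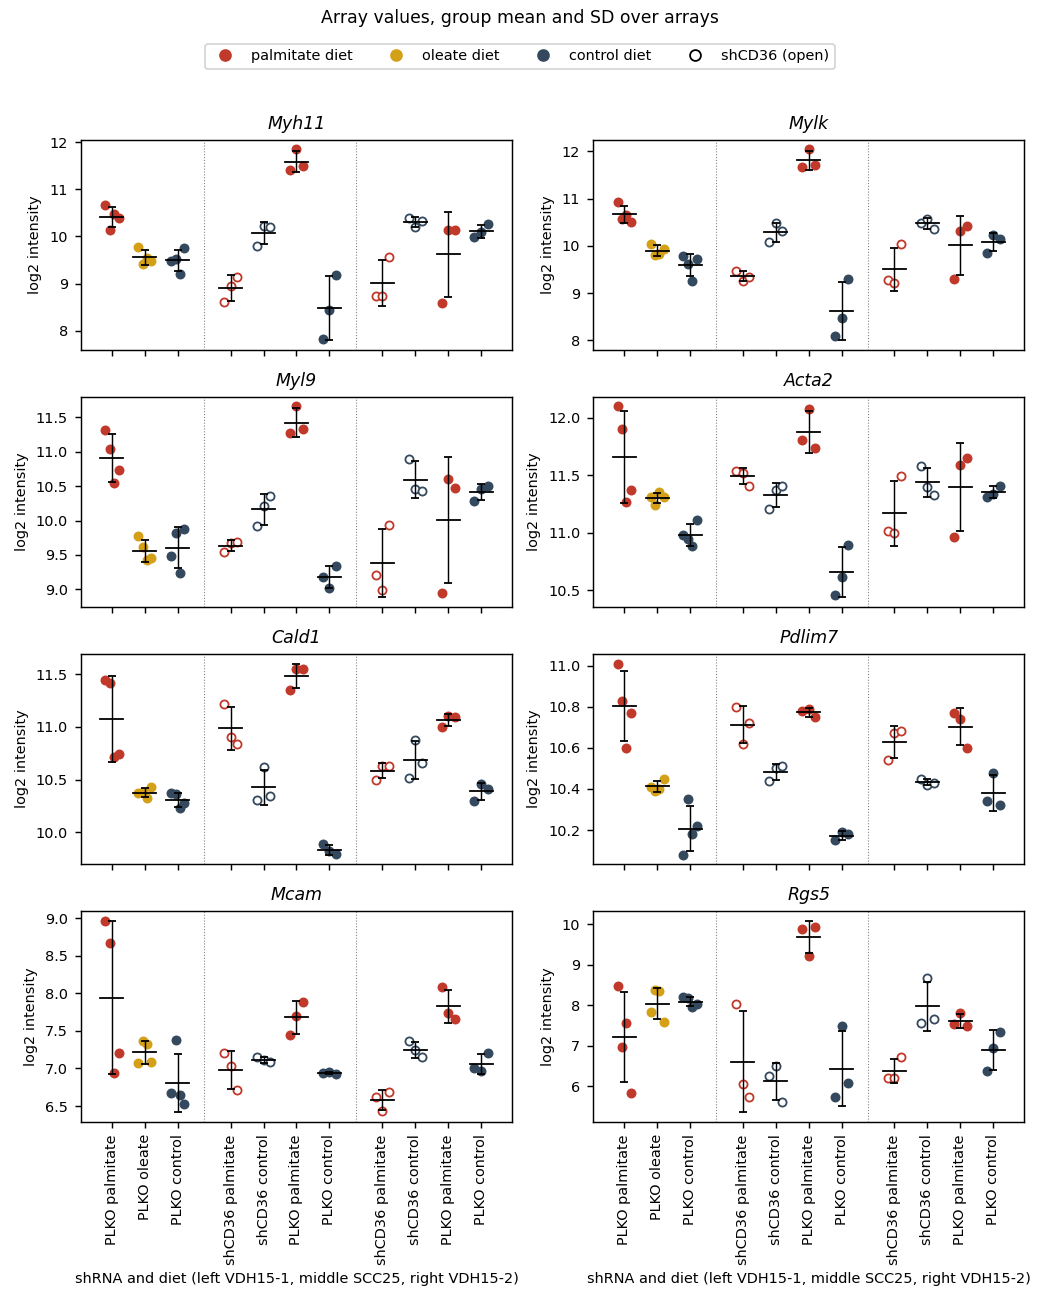
Array values (log2 intensity, vertical axes) of 8 members by shRNA and diet, with VDH15-1 at the left, SCC25 in the middle and VDH15-2 at the right of each panel. Each point is an array, filled for PLKO and open for shCD36, the horizontal bar is the group mean and the whiskers are 1 SD over 3 or 4 arrays. In SCC25 the PLKO palmitate arrays of Myh11 (11.41, 11.85 and 11.50) lie above all other arrays of that experiment.

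The filament proteins and their direct controls differed more between experiments than the called genes. Myh11, the heavy chain of smooth muscle myosin, had 11.41, 11.85 and 11.50 log2 on palmitate in SCC25 PLKO tumours, against 7.82, 8.45 and 9.18 on control. In VDH15-1 it had 10.66, 10.13, 10.47 and 10.38 on palmitate, against 9.48, 9.52, 9.21 and 9.76 on control. The VDH15-2 arrays read 8.58, 10.14 and 10.14 on palmitate, against 9.99, 10.09 and 10.26 on control. Palmitate arrays lay above every control array in SCC25 and VDH15-1, while in VDH15-2 the low value was that of replicate 1, one of the arrays that stood apart. The differences of group means were 3.10 in SCC25, 0.92 in VDH15-1 and -0.50 in VDH15-2, the last becoming 0.03 without that array. Over the 3 experiments the log2 fold change of Myh11 was 1.18 ± 0.58 (SE) with a limma adjusted p of 0.254. A second, dimmer Myh11 probe set gave 0.23, with 0.32 in SCC25.

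Mylk, the kinase that starts contraction, differed by 3.20 log2 in SCC25, 1.07 in VDH15-1 and -0.07 in VDH15-2, the last becoming 0.29 without replicate 1. Over all 3 experiments it differed by 1.40 ± 0.53 (SE, limma adjusted p 0.153). All 3 Mylk probe sets were highest in SCC25, with differences of 3.20, 2.36 and 1.26. Myl9, the regulatory light chain that Mylk phosphorylates, had 11.28, 11.66 and 11.33 log2 on palmitate in SCC25, against 9.18, 9.02 and 9.34 on control. In VDH15-2 Myl9 had 8.95, 10.60 and 10.47 on palmitate, against 10.29, 10.46 and 10.50 on control, and the low array was again replicate 1. The Myl9 differences were 2.25 in SCC25, 1.30 in VDH15-1 and -0.41 in VDH15-2, or 0.12 in VDH15-2 without that array.

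Acta2, the main actin of vascular smooth muscle and of myofibroblasts, had 11.81, 12.08 and 11.74 log2 on palmitate in SCC25, against 10.46, 10.61 and 10.89 on control. In VDH15-1 it had 12.10, 11.90, 11.27 and 11.37 on palmitate, against 10.98, 10.94, 10.88 and 11.11 on control. Its values in VDH15-2 were 10.96, 11.59 and 11.65 on palmitate, against 11.31, 11.34 and 11.41 on control. The groups were apart in SCC25 and VDH15-1 and overlapped in VDH15-2. Without the arrays that stood apart the Acta2 difference was 0.35 in place of 0.68 in VDH15-1 and 0.27 in place of 0.05 in VDH15-2. The log2 fold change over the 3 experiments was 0.65 ± 0.21 (SE, limma adjusted p 0.110), while a second Acta2 probe set gave 0.08 with -0.64 in VDH15-1. Actg2, the actin of visceral smooth muscle, had 8.74, 8.18, 6.46 and 6.11 log2 on palmitate in VDH15-1, against 5.65, 5.56, 5.20 and 5.67 on control. The highest of these Actg2 values were on the 2 VDH15-1 arrays that stood apart, and the difference of 1.85 became 0.76 without them. Actg2 differed by 1.08 in SCC25 and 0.12 in VDH15-2 (0.27 without replicate 1) and did not pass the test (1.02 ± 0.28, SE, limma adjusted p 0.0777).

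Among the remaining contractile members, Myocd, the cofactor of SRF, had differences of 0.96 in SCC25, 0.48 in VDH15-1 and 0.28 in VDH15-2 (0.55 without replicate 1), and a fitted value of 0.57 ± 0.15 (SE, limma adjusted p 0.0687). Jph2, which couples the calcium store to the surface membrane, had 0.93, 0.65 and 0.17 in the same order, the last becoming 0.36 without that array, and a fitted value of 0.58 ± 0.15 (adjusted p 0.0638). Without the 3 arrays that stood apart Jph2 passed the test, with 0.60 and an adjusted p of 0.0418. Calponin (Cnn1), which binds actin and slows myosin, had 0.47 in SCC25, 0.52 in VDH15-1 and 0.00 in VDH15-2, the last 2 becoming 0.21 and 0.13 without the arrays that stood apart. The other anchors and calcium-store genes Pdlim3, Synpo2 and Pln (phospholamban, the brake on the calcium pump) had 1.20, 0.73 and 0.71 in SCC25 and 0.79, 0.29 and 0.42 in VDH15-1. In VDH15-2 they had -0.43, -0.07 and -0.18, or -0.12, 0.09 and -0.13 without replicate 1 of PLKO palmitate. Tpm1, Tpm2, Csrp1, Lmod1, Ppp1r12b, Des and Casq2 had fitted values between -0.16 and 0.08, and none of them passed the test. These 7 genes encode tropomyosins, a LIM protein of the actin cytoskeleton, leiomodin, a subunit of myosin phosphatase, the intermediate filament desmin and the calcium-binding protein calsequestrin. Of the 14 members with 2 or more probe sets above the filter, 12 gave the same sign on all of them, and Tpm1 and Tpm2 did not.

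**Figure D2:**
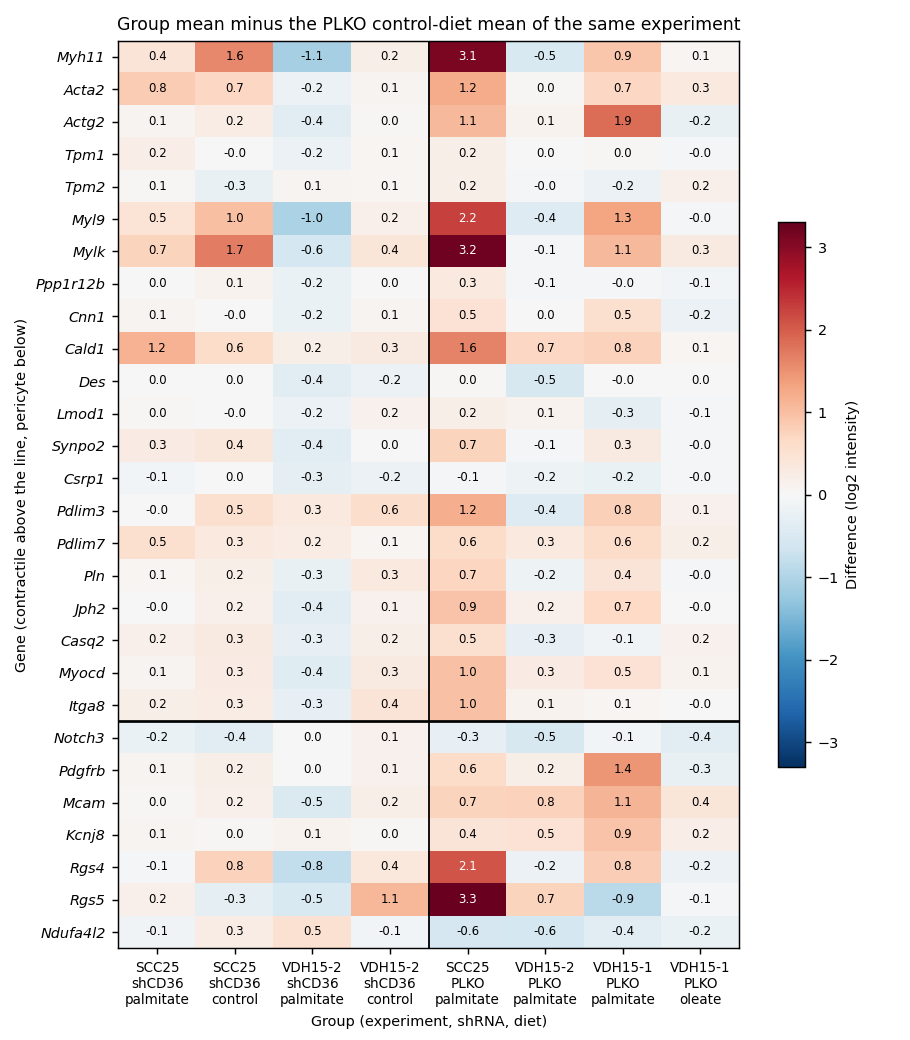
Differences of group means from the PLKO control-diet mean of the same experiment (log2 intensity, colour scale at the right) for the 28 measured members, rows, in the 8 other groups, columns. All columns of an experiment share the same control arrays. Contractile genes are above the horizontal line and pericyte genes below it, Itga8 and Kcnj8 are under the dim filter, and the deepest red cells are Mylk, Myh11 and Rgs5 in SCC25 PLKO palmitate (3.20, 3.10 and 3.26).

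The pericyte genes did not move as one group. Pdgfrb, the receptor that recruits pericytes, had 9.17, 9.45, 7.78 and 8.04 log2 on palmitate in VDH15-1, against 7.25, 7.09, 7.23 and 7.09 on control. In SCC25 Pdgfrb had 8.32, 8.23 and 8.15 on palmitate, against 7.58, 7.63 and 7.64 on control. In VDH15-2 it had 8.09, 7.83 and 7.93 on palmitate, against 7.72, 7.75 and 7.79 on control. The groups did not overlap in any experiment, with differences of 1.44, 0.62 and 0.19 in the order given, and 0.75 and 0.12 for VDH15-1 and VDH15-2 without the arrays that stood apart. Pdgfrb did not pass the test over the 3 experiments (0.75 ± 0.21, SE, limma adjusted p 0.0788), nor without those arrays (0.49, adjusted p 0.0657).

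Rgs5, a brake on G protein signalling and a widely used pericyte marker, had 9.90, 9.23 and 9.94 log2 on palmitate in SCC25, against 5.73, 7.48 and 6.07 on control. In VDH15-1 it had 8.49, 6.98, 7.56 and 5.83 on palmitate, against 8.21, 8.17, 7.97 and 8.03 on control. The VDH15-2 arrays of Rgs5 read 7.55, 7.81 and 7.49 on palmitate, against 6.37, 6.94 and 7.35 on control. Palmitate arrays were all higher in SCC25 and VDH15-2, and in VDH15-1 they were spread widely over both sides of the control arrays, with a difference of -0.88, or -1.40 without the arrays that stood apart. The fitted value for Rgs5 was 1.04 ± 0.82 (SE, limma adjusted p 0.477). Its relative Rgs4 had differences of 2.08 in SCC25, 0.81 in VDH15-1 and -0.18 in VDH15-2, where it was 0.18 without replicate 1 of PLKO palmitate.

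Notch3, the Notch receptor of mural cells, and Ndufa4l2, a mitochondrial protein known from pericytes and induced in low oxygen, had negative values in all 3 experiments. Notch3 differed by -0.28 in SCC25, -0.10 in VDH15-1 and -0.52 in VDH15-2, the last 2 becoming -0.33 and -0.31 without the arrays that stood apart. Ndufa4l2 had 7.88, 7.84 and 7.87 log2 on palmitate in SCC25, against 8.45, 8.36 and 8.46 on control. Its differences were -0.56 in SCC25, -0.37 in VDH15-1 (-0.09 without its 2 arrays that stood apart) and -0.59 in VDH15-2, with palmitate arrays all below control arrays in SCC25 and VDH15-2. Neither gene passed the test over the 3 experiments, with limma adjusted p-values of 0.248 for Notch3 and 0.115 for Ndufa4l2.

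Set side by side, contractile members had a median palmitate minus control difference of 0.72 log2 in SCC25, 0.50 in VDH15-1 and -0.05 in VDH15-2. Pericyte members had medians of 0.68, 0.36 and 0.01 in the same order, and all genes -0.03, -0.04 and -0.01. In SCC25, 17 of 20 contractile members had every palmitate array above every control array and 1 had every one below, against 15.4% and 19.7% of all genes. In VDH15-1 these counts were 13 and 2, against 17.2% and 23.1%, and in VDH15-2 they were 2 and 2, against 14.9% and 17.1%. Of the 6 pericyte members, 4 were apart upwards and 2 downwards in SCC25, 2 and 0 in VDH15-1, and 3 and 2 in VDH15-2. Fitted on the arrays of 1 experiment, limma called 21 of 26 members in SCC25, 19 in VDH15-1 and 6 in VDH15-2, against 19.1%, 46.3% and 14.4% of all genes. Within the scan batches of VDH15-1 the contractile median was 0.63 and 0.37 and the pericyte median 0.45 and 0.26.

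Without the arrays that stood apart, the contractile median was 0.37 in VDH15-1 and 0.12 in VDH15-2, where 14 of 20 members then had positive differences instead of 9. The pericyte medians were then 0.09 in VDH15-1 and 0.15 in VDH15-2. The negative contractile median of VDH15-2 rested on replicate 1 of PLKO palmitate. Over all arrays, 8 of 20 contractile and 2 of 6 pericyte members were higher in all 3 experiments, against 19.5% of all genes, and 1 contractile and 2 pericyte members were lower in all 3, against 28.9%.

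**Figure D3:**
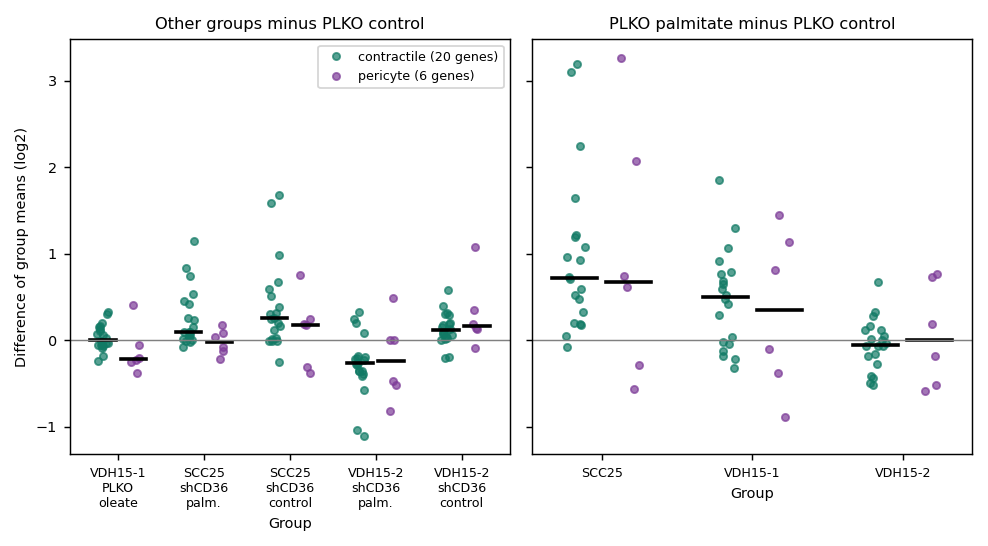
Differences of group means from the PLKO control mean of the same experiment (log2, vertical axis) for the 20 contractile (green) and 6 pericyte (purple) members above the dim filter, each point a gene and each black bar the median. At the right, PLKO palmitate gives contractile medians of 0.72 in SCC25, 0.50 in VDH15-1 and -0.05 in VDH15-2; at the left are the oleate and shCD36 groups.

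Whether the palmitate effect of the SCC25 experiment differed from that of the VDH15 experiments was tested with an interaction term over both shRNAs. It called 0 of 12823 genes with limma, and 281 genes (2.19%) had an unadjusted p under 0.05. Among the members 7 of 26 had such a p, and all adjusted p-values were close to 1, so no member was shown to differ between the cell lines. In the contractile class 20 of 20 interaction values were positive, with a median of 0.45. Of all 12823 genes 7046 were positive, with a median of 0.02. Such values were not particular to contractile genes. Endothelial markers had 11 of 11 positive with a median of 0.94, and fibroblast markers 7 of 9 with 0.44. Skeletal muscle markers had 3 of 10 positive with -0.07. SCC25 also had the highest PLKO difference of the 3 experiments for 18 of 20 contractile members, against 27.4% of all genes, and for 2 of 6 pericyte members. Pericyte members had an interaction median of 0.13, with 4 of 6 positive, and it was 0.26 without VDH15-1, -0.19 without VDH15-2 and 0.27 without the 3 arrays that stood apart.

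Among single members Cald1 had an interaction value of 0.81 ± 0.13 (SE, unadjusted p 0.000928 in limma), Myocd one of 0.57 ± 0.12 (unadjusted p 0.0042) and the calcium-store protein Casq2 one of 0.55 ± 0.15 (unadjusted p 0.0105). Rgs5 had 2.80 ± 0.81 (unadjusted p 0.0147) and Rgs4 1.15 ± 0.47 (unadjusted p 0.0496). Myh11 and Mylk had 1.71 ± 0.71 and 1.55 ± 0.65, with unadjusted p-values of 0.0542 and 0.0567. Casq2 in SCC25 PLKO tumours had 6.21, 6.37 and 6.43 log2 on palmitate, against 5.77, 5.88 and 5.78 on control, while in VDH15-2 it had 5.67, 5.86 and 6.10 on palmitate, against 6.13, 6.07 and 6.24 on control. Myocd in SCC25 had 5.86, 6.09 and 6.18 on palmitate, against 5.02, 5.05 and 5.17 on control. In VDH15-2 Myocd had 5.11, 5.65 and 6.18 on palmitate, against 5.20, 5.45 and 5.45 on control, a wide spread that crossed the control arrays. Cell line and experiment cannot be told apart for SCC25, which was used in 1 experiment.

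In shCD36 tumours the palmitate diet called 0 of 12823 genes (0%) with limma, and 282 genes (2.2%) had an unadjusted p under 0.05. The contractile members had a median log2 fold change of -0.22, with 17 of 20 negative, and the pericyte members one of -0.26, with 4 of 6 negative. Mcam alone among the members had an unadjusted p under 0.05 (-0.40 ± 0.17, SE, 2 experiments, unadjusted p 0.0482). Its arrays in VDH15-2 shCD36 tumours read 6.62, 6.43 and 6.69 log2 on palmitate, against 7.36, 7.24 and 7.15 on control. In SCC25 shCD36 tumours they read 7.20, 7.03 and 6.71 on palmitate, against 7.15, 7.11 and 7.08 on control. The groups were apart in VDH15-2 and overlapped in SCC25.

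Myh11 was lower on palmitate in the arrays of both shCD36 experiments. It had 8.61, 8.96 and 9.15 log2 on palmitate in SCC25 shCD36 tumours, against 9.80, 10.22 and 10.21 on control. In VDH15-2 shCD36 tumours it had 8.74, 8.73 and 9.57 on palmitate, against 10.40, 10.20 and 10.33 on control. The fitted value of -1.23 ± 0.71 (SE, limma unadjusted p 0.129) did not pass the test. Rgs4 had 7.53, 7.47 and 7.55 log2 on palmitate in SCC25 shCD36 tumours, against 8.21, 8.26 and 8.57 on control. In VDH15-2 shCD36 tumours it had 7.40, 7.44 and 8.04 on palmitate, against 8.90, 8.72 and 8.77 on control, and the fitted value was -1.0 ± 0.47 (unadjusted p 0.0747). Every palmitate array of Myh11, Mylk, Myl9, Myocd, Casq2 and Rgs4 lay below every control array in both shCD36 experiments. The share of all genes that met this rule in both experiments was not counted, so the list cannot be read as a trait of the members. Pdlim7 went the other way, with all palmitate arrays above the control arrays in both experiments and a fitted value of 0.21 ± 0.10 (unadjusted p 0.0728). In SCC25, 6 of 20 contractile members were apart downwards and 5 upwards, against 8.13% and 14.6% of all genes, and in VDH15-2 these counts were 9 and 1, against 12.3% and 8.03%. Fitted on the arrays of SCC25, limma called 7 of 26 members in this comparison, against 6.36% of all genes, and on those of VDH15-2 it called 2, against 1.26%.

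**Figure D4:**
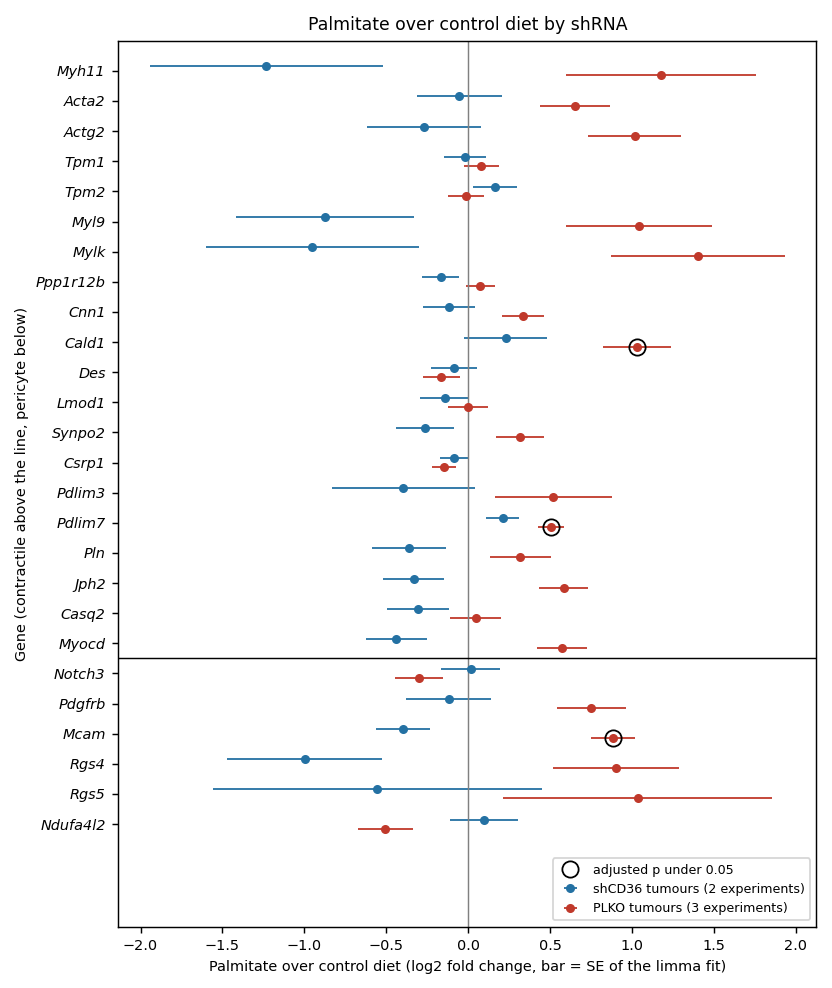
Palmitate over control diet for the 26 tested members (log2 fold change, horizontal axis) in shCD36 tumours (blue, 2 experiments) and PLKO tumours (red, 3 experiments). Bars are the SE of the limma fit, and ringed points (Cald1, Pdlim7 and Mcam in PLKO tumours) passed an adjusted p of 0.05.

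The difference of the palmitate effect between shCD36 and PLKO tumours, a comparison added after the data were seen, was not called for any of the 12823 genes (0%), although 2011 (15.7%) had an unadjusted p under 0.05. Contractile members had a median difference of -0.63 and pericyte members one of -1.08, with 17 of 20 contractile values negative. The smallest member p belonged to Mcam, with -1.28 ± 0.21 (SE, limma adjusted p 0.0945). Myocd had -1.01 ± 0.24 (adjusted p 0.155) and Jph2 -0.92 ± 0.24 (adjusted p 0.176). Myh11 and Mylk had larger values of -2.41 ± 0.92 and -2.35 ± 0.84, with adjusted p-values of 0.294 and 0.276. The palmitate effect was thus called for 0 members in shCD36 tumours and for 3 in PLKO tumours, but a difference between the tumours was not shown at the adjusted threshold.

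Compared directly, shCD36 over PLKO on the palmitate diet called 48 of 12823 genes (0.374%) and 0 members, and 6 genes and 0 members without the 3 arrays that stood apart. The contractile median was -0.34, with 18 of 20 negative, and the pericyte median -0.78. Mcam came closest, with -1.03 ± 0.16 (SE, 2 experiments, limma adjusted p 0.0642), followed by Jph2 with -0.75 ± 0.18 and Myocd with -0.75 ± 0.18 (adjusted p 0.109 and 0.110). Ndufa4l2 was on the other side, at 0.72 ± 0.20 (adjusted p 0.140), and its arrays did not overlap in either experiment. In SCC25, shCD36 arrays lay below all PLKO arrays on palmitate for 15 of 20 contractile members, against 12.5% of all genes, and in VDH15-2 for 1 of 20, against 19%. On the control diet shCD36 over PLKO called 0 genes (0%), while 435 (3.39%) had an unadjusted p under 0.05 and none of these was a member. In SCC25 alone, however, 11 of 20 contractile members were apart upwards in shCD36 control tumours, against 13.1% of all genes, and limma on the arrays called 11 of 26 members, against 9.49%. Myh11 there had 9.80, 10.22 and 10.21 log2 in shCD36 tumours, against 7.82, 8.45 and 9.18 in PLKO tumours, a difference of 1.59. In VDH15-2 the same Myh11 difference was 0.20 with overlapping arrays. The low SCC25 PLKO control arrays enter both this difference and the palmitate difference of 3.10, so the values share those arrays.

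No member was called on the oleate diet, which was given in VDH15-1 alone. Oleate over control called 0 genes (0%) with limma, and 225 (1.75%) had an unadjusted p under 0.05, none of them a member. Contractile members had a median of 0.01 log2 within VDH15-1 and pericyte members one of -0.21. Every oleate array lay above every control array for 4 of 20 contractile members, against 6.54% of all genes, and below for 2 of 6 pericyte members, against 9.06%. Fitted on the arrays of VDH15-1, limma called 0 of 26 members, against 1.23% of all genes. Acta2 had 11.31, 11.24, 11.35 and 11.31 log2 on oleate, against 10.98, 10.94, 10.88 and 11.11 on control, which did not overlap but differed by 0.32. Actg2 had 5.34, 5.31, 5.16 and 5.33 on oleate, against 5.65, 5.56, 5.20 and 5.67 on control. Palmitate over oleate called 5 genes (0.039%) and 0 members, and 0 genes without the 3 arrays that stood apart. Its highest values among the members, with all arrays, were those of Actg2 (1.67 ± 0.45, SE, limma adjusted p 0.268) and Pdgfrb (1.35 ± 0.33, adjusted p 0.239). Both genes were high on the 2 VDH15-1 palmitate arrays that stood apart. Without them the palmitate over control difference in VDH15-1 was 0.76 in place of 1.85 for Actg2 and 0.75 in place of 1.44 for Pdgfrb. On the arrays of VDH15-1 alone limma called 17 of 26 members for palmitate over oleate, against 39.1% of all genes. This comparison shares its palmitate arrays, 2 of which stood apart, with palmitate over control.

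Genes that act around the members were taken from lists written from general knowledge. These lists and the cell type lists below were chosen with earlier results of these data known. Their counts beside those of all genes are therefore a description and no independent support. In the SRF pathway outside the members, 15 of 21 tested genes had positive values on palmitate in PLKO tumours and 6 negative ones. The list median was 0.05. The test called 5 of the 21 higher and 0 lower, against 3.65% of all genes called higher. Those with the smallest p were the fibronectin receptor subunit Itga5 (1.07 ± 0.08), the matrix protein Ccn2 (1.22 ± 0.13), talin (Tln1, 0.51 ± 0.08) and the collagen receptor subunit Itga1 (0.80 ± 0.14), with limma adjusted p-values of 0.00628, 0.0141, 0.0261 and 0.0296. Of the 20 other tested genes of pericyte signalling, 14 had positive values and 6 negative ones, with a median of 0.15. The test called 3 of them higher and 0 lower. Those called were the Notch target Hey1 (0.95 ± 0.12, adjusted p 0.0174), the Notch ligand Dll4 (1.17 ± 0.20, adjusted p 0.0288) and the angiopoietin receptor Tek (1.57 ± 0.33, adjusted p 0.0429). Tek is a gene of endothelial cells, and which cells the Hey1 and Dll4 values came from was not tested. The Tek ligand Angpt1, made by pericytes, had 0.49 ± 0.13 and did not pass (adjusted p 0.0638).

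Markers of other cell types moved in the same comparison. Fibroblast markers had positive values for 9 of 9 tested genes, with a median of 1.56. Of these, 5 were called higher, against 3.65% of all genes. Pdgfra and Col1a2 lay under the dim filter and were not tested. Over all 11 measured fibroblast markers the mean PLKO level was 9.75 log2 on palmitate and 8.85 on control in VDH15-1. It was 10.25 against 8.40 in SCC25 and 9.70 against 8.86 in VDH15-2. Postn (1.56 ± 0.19) and Lum (1.94 ± 0.38) were among the fibroblast markers called. Endothelial markers had positive values for 11 of 11 tested genes, 3 of them called, with a median of 1.28. Their mean PLKO level was 9.95 log2 on palmitate and 8.56 on control in VDH15-1. It was 10.03 against 8.03 in SCC25 and 9.86 against 9.10 in VDH15-2. Keratinocyte markers had negative values for 10 of 11 tested genes. Krt4 (-1.95 ± 0.34) and Krt13 (-1.23 ± 0.26) were called lower, as were 419 of all 12823 genes. The mean PLKO level of the list was 10.22 log2 on palmitate and 11.53 on control in VDH15-1. It was 10.64 against 11.11 in SCC25 and 10.72 against 11.02 in VDH15-2. The part of these cell types in the members' values was not tested. Activated fibroblasts as well as pericytes are known to express Acta2, Cald1 and Pdgfrb, and endothelial cells to express Mcam.

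Striated muscle shares several listed genes with smooth muscle. Skeletal muscle markers had mean levels of 5.43 to 5.50 log2 in all 11 groups, with 0 of 10 tested genes called and a median of -0.02, and Myh1, Myh4 and Casq1 lay under the dim filter. Slow and heart muscle markers had mean levels of 5.85 to 5.96, with 0 of 6 called. Schwann markers had 0 of 4 tested genes called. In shCD36 tumours the same fibroblast list had a palmitate median of -0.61 and the endothelial list one of 0.04, with 0 genes of either list called.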

How the data were processed

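RNA of the stromal neural fraction was hybridised to 36 mouse Affymetrix arrays. The deposited values were log2 intensities; RMA and affy are named in the submitters' processing notes, and raw files were not used here. In these values hybridisation batch and scan batch had terms below 1e-06 log2 in 100% of 45141 probe sets in a model that also held diet and shRNA. Each hybridisation batch held the arrays of 1 experiment, so cell line had no term of its own. The authors' table had thus been adjusted for these batches, a step not given in the sources used here. The platform annotation named 28898 probe sets with 1 gene, for 17097 genes in all. The dimmest 25% were dropped, and 12823 genes were tested.

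The unit of the main test was the group, averaged over its arrays. The 11 averages were modelled by condition and experiment (limma 3.58.1, R 4.3.3), leaving 4 residual and 2.70 prior degrees of freedom, and a second model added the SCC25 interaction. An adjusted p under 0.05 was a call. Array values were chosen for display by rule for members called and, per comparison, the 3 contractile and 2 pericyte members with the smallest p; values of Myh11, Mylk, Myl9, Acta2, Actg2, Rgs5 and Ndufa4l2 were shown for their roles. Of each other list up to 4 genes with the smallest p were named. Members and lists were chosen with earlier results of these data known. The models were tested on simulated data. The number of experiments behind each comparison limits the precision of the main test. Alternatives were other normalization, filter, probe set, variance and replicate settings, and leaving out each experiment in turn.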

Additional observations from a re-analysis of the deposited data

Results flagged for a closer look

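Of 84 member and group pairs with 4 arrays, 3 held 1 array far from the other 3, and chance flags about 1 in 20 such groups. They were Actg2 in replicate 3 of VDH15-1 PLKO oleate (5.16 log2), Des in replicate 1 of VDH15-1 PLKO palmitate (6.42) and Casq2 in the same array (5.93). That array is one of those that stood apart on the first principal component.

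In 10 cases all palmitate arrays of shCD36 tumours moved one way from their control arrays and all palmitate arrays of PLKO tumours the other way within an experiment. The share of all genes that met this rule was not counted, so the count cannot be read as a trait of the members. The sizes that follow belong to members picked by the rule. In SCC25 the palmitate effect in shCD36 minus that in PLKO tumours was -4.27 log2 for Myh11, -4.14 for Mylk, -2.78 for Myl9, -2.91 for Rgs4, -1.73 for Pdlim3, -1.13 for Myocd and -0.67 for Casq2. In VDH15-2 it was -1.44 for Mcam, -2.32 for Rgs5 and 1.16 for Ndufa4l2. For Myh11 the shCD36 effect was -1.17 and the PLKO effect 3.10, and for Mcam in VDH15-2 they were -0.66 and 0.77. Within 1 experiment the difference was not tested; over both experiments the limma test of the difference called 0 members. In PLKO tumours Tpm2 was higher on palmitate in SCC25 (0.18) and lower in VDH15-1 (-0.18, or -0.11 without the arrays that stood apart), a difference of 0.37 that was not tested by itself.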

How the results depend on the processing

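No called value changed sign under any alternative run. In PLKO tumours the number of members called on palmitate, 3 as reported, was 0 each time 1 of the 3 experiments, which are the biological replicates of this fit, was left out (lowest 0, highest 0), 1 with the mean of all probe sets of a gene, 14 with all arrays and an estimated correlation between arrays of a group (duplicateCorrelation), and 13 with a replicate block added to that fit, where 3052 and 2910 of all genes were called. The fit on all arrays treats the arrays of a group as more than 1 sample. With it and with the replicate block, shCD36 over PLKO on palmitate gave 8 and 8 members called instead of 0 (1627 and 1516 of all genes), palmitate over oleate 4 and 3 instead of 0 (581 and 513 of all genes), and the palmitate effect in shCD36 minus PLKO tumours 9 and 9 instead of 0 (1052 and 986 of all genes). Same-numbered arrays had a median correlation of 0.03 in VDH15-1, 0.03 in SCC25 and -0.05 in VDH15-2, so the numbers did not pair the arrays. The replicate block within an experiment changed no other count by over 1.5 times.

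With an experiment left out, the pericyte median in PLKO tumours ran from 0.12 to 0.98 and the contractile median from 0.20 to 0.58. The pericyte median of the SCC25 minus VDH15 palmitate effect, 0.13 as reported, ran from -0.19 without VDH15-2 to 0.26 without VDH15-1. With 1 array left out, the members called on the arrays of 1 experiment ran from 2 to 8 in SCC25 shCD36 tumours (7 as reported), from 2 to 6 in VDH15-2 PLKO tumours and from 0 to 10 in VDH15-2 shCD36 tumours (2 as reported), the highest without replicate 1 of PLKO palmitate. Without SCC25 its interaction could not be fitted, and without VDH15-2 it had no residual degrees of freedom. The cause of these shifts was not tested. With 4 residual degrees of freedom and 1 to 3 experiments a comparison, p-values that miss the threshold do not show that values were alike.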
